A study of Rattus norvegicus with 6 samples.

Results

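The ubiquitin enzymes named Trim, Rnf and Ube2 were measured in 2 kinds of rat pluripotent cell, embryonic stem cells (ES) and the cells labelled flat pluripotent stem cells (fPS). A gene belonged to this group if its probe set carried a single symbol in the platform's annotation that began with Trim or Rnf and a digit, or with Ube2 and a letter. This gave 132 genes among 14217 with a symbol of their own, namely 35 TRIM, 68 RNF and 29 UBE2 genes. Each gene was represented by the probe set with the highest mean over the 6 arrays. RNA of Sprague-Dawley rat cells was hybridised to Affymetrix 3' arrays, with 3 arrays of ES cells and 3 of fPS cells. By their shared protocols, both kinds of cell received human LIF at 10 ng/ml, the GSK3 inhibitor CHIR99021 at 3 µM and the MEK inhibitor PD0325901 at 0.5 µM, and both were kept on mitomycin C-treated mouse embryonic fibroblasts with 15% serum. The labels name no genotype, transgene, cell line or age, and the description of the fPS samples also calls them embryonic stem cells. No label states that the arrays of a group stand for independent cultures, so each p-value reflects the spread between these arrays, which may be technical.

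Ubiquitin is a small protein that is joined to other proteins and marks them for the proteasome or changes what they bind. An E1 enzyme activates ubiquitin, an E2 conjugating enzyme (the UBE2 family) carries it, and an E3 ligase picks the substrate. Most TRIM and RNF proteins are E3 ligases with a RING domain, and TRIM proteins add a B-box and a coiled coil. In embryonic stem cells, Trim28 silences retroelements together with KRAB zinc finger proteins, and Rnf2 is a catalytic subunit of Polycomb complex 1.

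Of the 132 genes, 1 fell and 0 rose in fPS cells at an adjusted p under 0.05 (limma), against 0.858% of all genes called in either direction, 0.57% upward and 0.288% downward (81 and 41 genes; with the arrays centred on their medians, 96 of 203 called genes were higher). The gene that fell was Trim2. The other 131 did not pass, which does not show that they were equal. At an unadjusted p under 0.05 there were 25 of the 132 genes, 11 higher and 14 lower, a share of 18.9% beside 17.5% of all genes (8.59% higher and 8.88% lower). The 3 ES and 3 fPS values did not overlap in 34 of the 132 genes, 19 higher and 15 lower, beside 22.6% of all genes (11.3% in each direction). These shares lay near the background of the whole array.

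The promoter sequence of the gene that fell is shown with those of Trim27 and Rnf8, which had the next largest changes of the 132 genes. The 250 bases before the RefSeq start (assembly GRCr8) are given from 5′ to 3′ on the gene's strand. Capitals mark the matches on either strand of 3 motifs, which did not overlap each other here: TGANTCA, the AP-1 site, GGGCGG, the GC box, and CCAAT. Trim2 lies on the minus strand, with its window at chr2:171862445-171862694, Trim27 on the minus strand at chr17:48246349-48246598, and Rnf8 on the plus strand at chr20:7683715-7683964.
Trim2: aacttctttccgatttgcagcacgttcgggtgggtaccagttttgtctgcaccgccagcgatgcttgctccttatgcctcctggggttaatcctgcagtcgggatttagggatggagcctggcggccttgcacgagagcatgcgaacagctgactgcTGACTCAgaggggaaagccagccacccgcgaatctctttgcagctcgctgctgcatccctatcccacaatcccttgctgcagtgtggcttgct
Trim27: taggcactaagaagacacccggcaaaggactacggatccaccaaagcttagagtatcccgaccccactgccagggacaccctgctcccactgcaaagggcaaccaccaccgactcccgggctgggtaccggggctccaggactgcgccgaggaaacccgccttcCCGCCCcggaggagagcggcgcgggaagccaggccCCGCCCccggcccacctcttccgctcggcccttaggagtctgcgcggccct
Rnf8: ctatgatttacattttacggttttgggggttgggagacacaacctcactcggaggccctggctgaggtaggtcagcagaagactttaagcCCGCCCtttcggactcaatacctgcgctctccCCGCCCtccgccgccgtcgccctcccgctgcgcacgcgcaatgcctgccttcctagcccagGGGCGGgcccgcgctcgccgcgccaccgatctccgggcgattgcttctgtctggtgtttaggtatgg
The window of Trim2 held 1 AP-1 match, whose farther end lies 93 bases before the start, and 0 GC boxes. That of Trim27 held 2 GC boxes and that of Rnf8 held 3, and neither held an AP-1 match. CCAAT was found in 0 of these 3 windows. Among 33469 windows of the same length, 6.34% held the AP-1 motif, 30.5% the GC box and 34% CCAAT. A match describes the letters of a window and not a bound site, and these arrays hold no measure of binding.

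Trim2 is a ligase of the TRIM-NHL type that is abundant in neurons, where it ubiquitinates the neurofilament light chain. Its 3 ES arrays read 494, 194 and 402 in ES cells against 57.4, 33.8 and 31.6 in fPS cells. Every ES array lay above every fPS array, although the ES values themselves were spread widely. The means were 363 ± 154 (SD, n = 3) and 40.9 ± 14.3 (SD, n = 3), which is -2.67 in log2 (SE 0.350, limma adjusted p = 0.0332), or 6.36-fold lower in fPS cells on the scale of log2(intensity + 16). That offset of 16 understates the changes of dim probe sets. The array held 3 probe sets for Trim2 and all 3 passed: the second went from 416, 182 and 408 to 70.9, 31.2 and 34.5, with a log2 difference of -2.48 (adjusted p = 0.0354), and the third from 163, 75.6 and 197 to 23.6, 14.6 and 12.7, with -2.22 (adjusted p = 0.0354). Probe sets of 1 gene read the same RNA samples and are not replicates.

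The call on Trim2 rested on single arrays while the direction did not. It was kept without ES replicate 2 and without fPS replicate 1 (adjusted p = 0.0444 and 0.0402). It was lost without ES replicates 1 or 3 (0.132 and 0.104) and without fPS replicates 2 or 3 (0.179 and 0.0897), with log2 changes from -3.05 to -2.41 over all 6 of these fits. In the 4 fits that lost it, between 0 and 3 of all 14217 genes were called. Pseudocounts of 1 and 64 also lost it, with log2 changes of -3.07 and -1.96 (adjusted p = 0.134 and 0.0582). In these bulk samples fewer cells with a transcript and less of it per cell cannot be told apart.

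**Figure D1:**
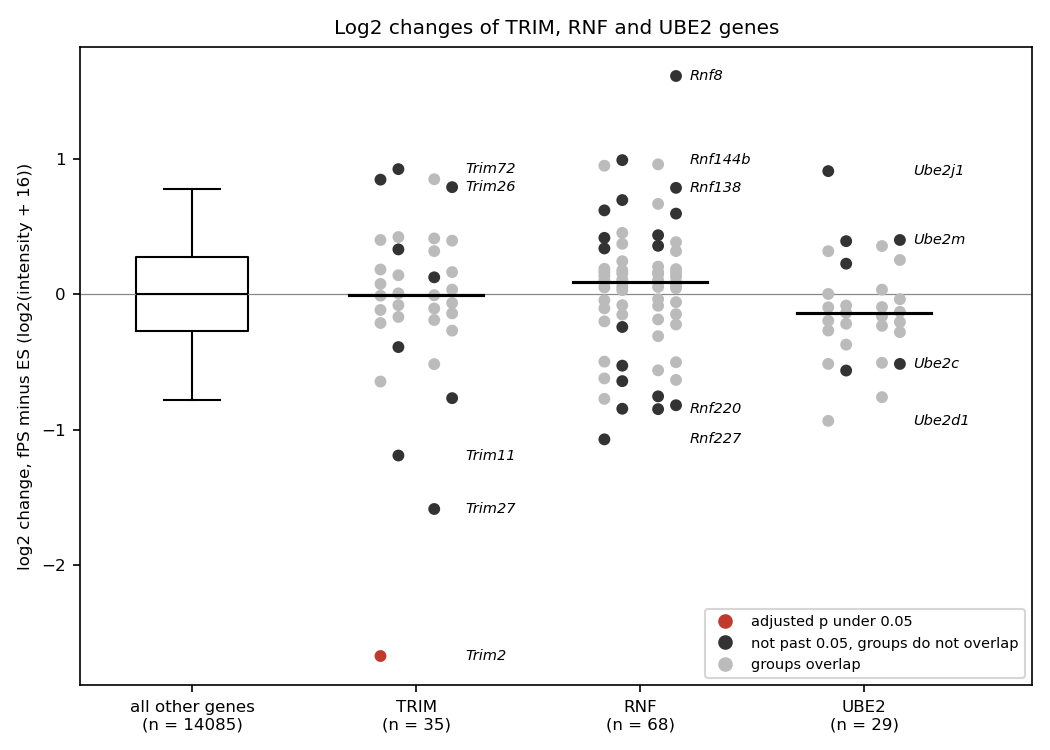
Log2 change (fPS minus ES) of each TRIM, RNF and UBE2 gene, one point a gene; thick lines are family medians, and the box gives the median and quartiles of 14085 other genes with whiskers at their 5 and 95 percentiles. Trim2, in red at -2.67, is the 1 gene past the threshold; the medians of the families are -0.0077, 0.087 and -0.14.

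Trim27 and Trim11 were the next TRIM genes by size of decrease. Trim27, a ligase of endosomal recycling that is abundant in male germ cells, had 1094, 1011 and 2003 in ES cells against 742, 346 and 294 in fPS cells. The groups did not overlap, and ES replicate 3 was the highest array. The log2 change was -1.58 (SE 0.388, adjusted p = 0.0986) and did not pass; it passed with the dimmest 30% of probe sets left out and under trend and robust eBayes (adjusted p = 0.0356 and 0.0387). Without ES replicate 3 and fPS replicate 3 it was -1.03. Trim11, a ligase linked to the clearance of misfolded proteins, had 111, 134 and 269 against 69.6, 79.5 and 39.6, a log2 difference of -1.19 (SE 0.345, adjusted p = 0.152). Its other, much dimmer probe set had the opposite sign, 0.52, and the mean over both gave -0.33.

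Among brighter TRIM genes (mean intensity of at least 100), Trim26 was the only one with all fPS arrays above all ES arrays in its brightest probe set. A second probe set of Trim47 also separated, with 32.0, 108 and 47.4 in ES cells against 171, 149 and 115 in fPS cells. Its log2 change was 1.14 (SE 0.347, adjusted p = 0.167). The other probe sets of Trim47, the brightest among them, had 0.32 and 0.31 with overlap. Trim26 is a ligase encoded in the MHC region that acts in antiviral signalling. It had 146, 203 and 103 in ES cells against 300, 235 and 261 in fPS cells, which is 0.79 in log2 (SE 0.262, adjusted p = 0.196). The change was 0.017 in its second probe set, whose groups overlapped. Of 6 measured TRIM genes listed for antiviral and innate immunity, 0 passed, 2 had a positive sign and the median was -0.075. That sign followed single arrays: the median was 0.14 without ES replicate 3, 0.19 without fPS replicate 3 and 0.41, with 5 positive, without both. Of 15 interferon-stimulated genes set beside them, 0 passed, 11 had a positive sign and the median was 0.35.

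The TRIM cofactors of transcription, the TIF1 group, did not pass in any of their 4 members. Trim28, the co-repressor of KRAB zinc finger proteins, had 4152, 3281 and 5550 in ES cells against 4385, 4031 and 2872 in fPS cells. These values overlapped, and the log2 change of -0.19 had a 95% interval from -0.80 to 0.42. Trim33, a ligase of the Smad pathway, had 712, 566 and 1161 against 969, 993 and 688, a change of 0.16 (95% interval -0.52 to 0.84). Trim24, which reads a histone mark and restrains p53, had 312, 317 and 560 against 257, 246 and 163. Its groups did not overlap, and the change was -0.77 (SE 0.291, adjusted p = 0.253). Trim66, the member known from germ cells, was dim, with values between 1.60 and 4.08.

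Among 6 measured TRIM genes of stem cells and cell growth, 5 had a negative sign and 0 passed (median -0.19). Trim6, a ligase of embryonic stem cells that acts on Myc, had 1328, 1259 and 1761 in ES cells against 1516, 1692 and 1001 in fPS cells, which overlapped. Trim59 had 1026, 954 and 1369 against 1129, 941 and 421, so that its log2 change of -0.52 came with 1 fPS array far below the others. The number with a positive sign ran from 0 without fPS replicate 2 to 5 with ES replicate 3 and fPS replicate 3 left out, so the sign of this list followed single arrays. Trim35 was the third of the brightest TRIM probe sets, at 1124, 1126 and 1708 against 1209, 1103 and 1035.

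The muscle TRIM genes Trim54, Trim63 and Trim72 all had positive log2 changes of 0.85, 0.39 and 0.92 at low intensity. The groups overlapped in Trim54 and in Trim63, whose values lay near the floor (0.92 to 26.0). Without both ES replicate 3 and fPS replicate 3, 2 of these genes were positive and 1 was negative. Trim72, known for membrane repair in muscle, had 5.70, 15.9 and 13.4 in ES cells against 40.7, 35.1 and 31.8 in fPS cells. Its groups did not overlap and the change did not pass (SE 0.224, adjusted p = 0.0971). Trim29, a TRIM protein without a RING domain, had 5.77, 18.4 and 34.9 against 41.7, 41.0 and 51.1, a change of 0.84 (SE 0.308, adjusted p = 0.235). Of 17 TRIM genes below a mean intensity of 100, 12 had a positive sign, while of 18 at or above it 13 had a negative one. The same direction was seen among 6781 other genes at 100 or more, of which 4078 were negative (median -0.10).

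**Figure D2:**
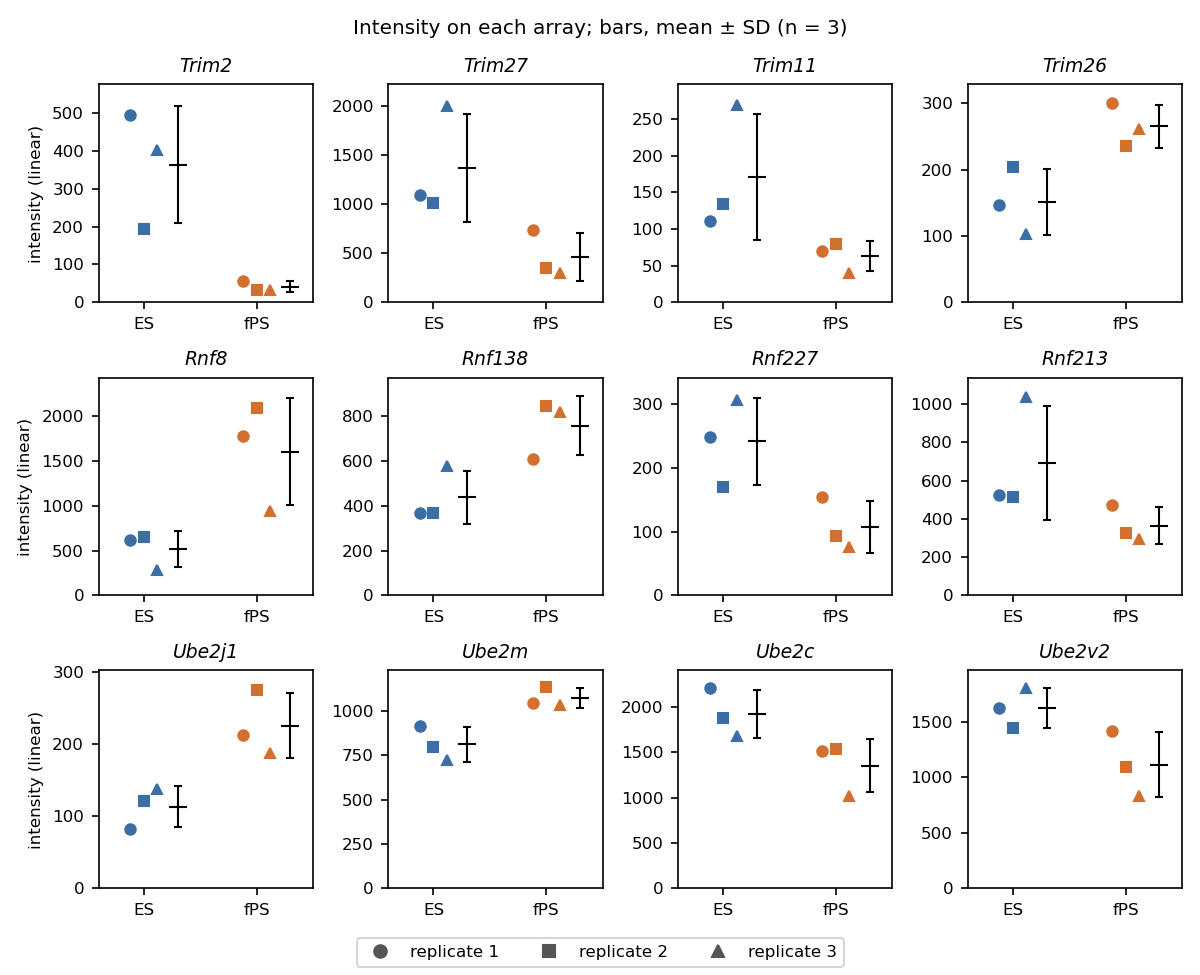
Linear intensity of 12 TRIM, RNF and UBE2 genes on the 3 ES (blue) and 3 fPS (orange) arrays, with the replicate given by the marker and the mean ± SD (n = 3) beside each group. In each of the 12 genes the groups do not overlap, and Trim2 is the 1 gene that passed the test.

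In the RNF family 0 of 68 genes passed. At an unadjusted p under 0.05 there were 7 higher and 7 lower (20.6%, beside 17.5% of all genes), and in 18 of 68 (26.5%, beside 22.6%) the groups did not overlap. The median log2 change was 0.087, and 42 of 68 genes had a positive sign. The alternatives gave medians between 0.017 and 0.15.

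Rnf8, the ligase that starts ubiquitination of chromatin at DNA double-strand breaks, had the largest increase of the 132 genes. Its arrays read 620, 652 and 284 in ES cells against 1776, 2092 and 941 in fPS cells. The groups did not overlap, and replicate 3 was the lowest array of both groups. The log2 change was 1.61 (SE 0.393) and did not pass (adjusted p = 0.098). It passed with the dimmest 30% of probe sets left out, under trend and robust eBayes and with the replicate number as a block (adjusted p = 0.0346, 0.0369 and 0.0472). It did not pass in the other 13 alternatives, where its adjusted p reached 0.350. The change lay between 1.24 and 1.95 in all 16, but several of them could not alter it. Leaving out dim probe sets, trend and robust eBayes and the block change only its p-value. Rnf8 has 1 probe set, so the settings that choose or average probe sets left its change as it was.

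The 12 listed RNF ligases of chromatin and DNA repair, Rnf8 among them, had both signs: 5 were positive, 7 negative, and the median was -0.13. Rnf168, which extends the chains begun by Rnf8, had 93.4, 113 and 167 on the ES arrays against 80.3, 70.5 and 87.7, a log2 difference of -0.53 (adjusted p = 0.350). Rnf138, a ligase of the resection of broken DNA ends, had 370, 370 and 576 against 608, 848 and 820, a change of 0.78 (SE 0.254, adjusted p = 0.187). Its groups did not overlap, whereas those of its other probe sets did, with changes of 0.32 and 0.091.

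Rnf20 and Rnf40 together attach ubiquitin to histone H2B. Rnf20 had 227, 173 and 380 in ES cells against 387, 447 and 397 in fPS cells, which is 0.69 in log2 (SE 0.286, adjusted p = 0.290). Its second probe set was near the floor of the array (1.84 to 19.9) and had the opposite sign, -0.74, so the mean over the probe sets gave -0.024. Rnf40 was dim, with overlapping values and a change of -0.50 (SE 0.252, adjusted p = 0.400).

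Rnf2 and Rnf4 were bright in both groups with overlapping values. Rnf2, the Polycomb subunit Ring1B, had 812, 978 and 1611 in ES cells against 1623, 1687 and 1212 in fPS cells, which is 0.45 in log2 (95% interval -0.21 to 1.11). Rnf4, a ligase that recognises SUMO chains, had 827, 637 and 1080 against 882, 766 and 524, a change of -0.22. Rnf7, the RING subunit of cullin-5 ligases and the brightest RNF probe set, had 2719, 2568 and 1828 against 2094, 2702 and 2704, a change of 0.086 (95% interval -0.45 to 0.62). Rnf115 had 1116, 1069 and 1441 against 1262, 1153 and 859.

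The RBR ligases, which pass ubiquitin through a cysteine of their own, all had a positive sign. Of 8 measured, 0 passed, 8 were positive, in 3 the groups did not overlap (37.5%, beside 22.6% of all genes), and the median was 0.49. A positive sign was found in 7107 of all 14217 genes and in 42 of the 68 RNF genes. Dim RNF genes were mostly positive, with 16 of 20 below a mean intensity of 100 and 26 of 48 at or above it. Of the 8 RBR genes, 4 had a mean intensity of at least 100. Rnf144b, a ligase induced by p53, had 42.9, 41.8 and 46.9 in ES cells against 61.7, 107 and 159 in fPS cells, which is 0.99 in log2 (SE 0.297, adjusted p = 0.163). Rnf19a had 339, 272 and 606 against 511, 710 and 645, which overlapped, and Rnf19b had 15.5, 25.5 and 26.3 against 44.8, 32.6 and 48.2, which did not. Rnf31, the catalytic subunit of the complex that makes linear ubiquitin chains, had 178, 220 and 293 against 263, 352 and 290, and Rnf14 had 309, 366 and 384 against 412, 490 and 447. Over the alternatives 6 to 8 of the 8 stayed positive, with 6 without ES replicate 1 and 7 with quantile normalization or centred arrays, and the median ran from 0.31 to 0.62. The list was described with counts and was not tested as a set.

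The largest decreases among RNF genes with a mean intensity of at least 100 and no overlap were those of Rnf227, Rnf220 and Rnf213. Rnf227 had 248, 170 and 307 in ES cells against 154, 93.4 and 75.9 in fPS cells, which is -1.07 in log2 (SE 0.303, adjusted p = 0.143). A second, much dimmer probe set of Rnf227 had -0.46 (SE 0.330) with overlap. Rnf220, a ligase that stabilises β-catenin, had 339, 314 and 542 against 248, 200 and 180, a change of -0.85 (SE 0.260, adjusted p = 0.170). Rnf213, a very large ligase known from moyamoya disease, had 525, 512 and 1036 against 473, 326 and 294, a change of -0.85 (SE 0.319, adjusted p = 0.252). Its second probe set had -1.27 (adjusted p = 0.0919), also without overlap. The remaining RNF genes of the Wnt pathway lay the other way, with 0.36 for Rnf146, which drives the breakdown of axin, and 0.34 for Rnf14. Of 7 measured RNF ligases of the endoplasmic reticulum, 0 passed, beside 0.858% of all genes. In 0 of them did the groups separate, beside 22.6% of all genes, and the changes ran from -0.31 to 0.16.

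In the UBE2 family 0 of 29 genes passed, at an unadjusted p under 0.05 there were 1 higher and 3 lower (13.8%, beside 17.5% of all genes), and in 6 of 29 (20.7%, beside 22.6%) the groups did not overlap. In the brightest probe set of each gene, 0 of 29 differed by 2-fold, beside 699 of all 14217, and 26 of 29 differed by less than 1.5-fold, a share of 89.7% beside 81.7% of all other genes. Dimmer probe sets of Ube2h, Ube2d1, Ube2k and Ube2l3 differed by more than 2-fold without overlap and did not pass. That of Ube2h had 21.6, 53.4 and 89.8 in ES cells against 115, 194 and 241 in fPS cells, which is 1.56 in log2 (SE 0.399, adjusted p = 0.112), while its brightest probe set had -0.14. The median log2 change was -0.14 and 20 of 29 were negative (16 with quantile normalization, 22 with centred arrays). This lean rested on fPS replicate 3: without it the median was -0.0086 and 15 were negative, and without both ES replicate 3 and fPS replicate 3 it was 0.044 and 13 were negative. Of 26 UBE2 genes at a mean intensity of at least 100, 17 were negative (median -0.12). Beside them, 4078 of 6781 other genes at that intensity were negative (median -0.10). The groups did not overlap in 23.1% of these UBE2 genes and 28.2% of the others, and 88.5% and 78.0% differed by less than 1.5-fold.

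The UBE2 level of fPS replicate 3 lay below that of the other arrays. The median deviation of the 29 genes from their own means over 6 arrays was 0.022, 0.016 and 0.093 in ES cells against 0.21, -0.030 and -0.41 in fPS cells. All other genes had -0.11 on fPS replicate 3, TRIM genes -0.26 and RNF genes -0.075. The 16 mitotic genes set beside them had -0.56 there and 0.45 on ES replicate 3, and the part of this difference between arrays in the UBE2 values was not tested.

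**Figure D3:**
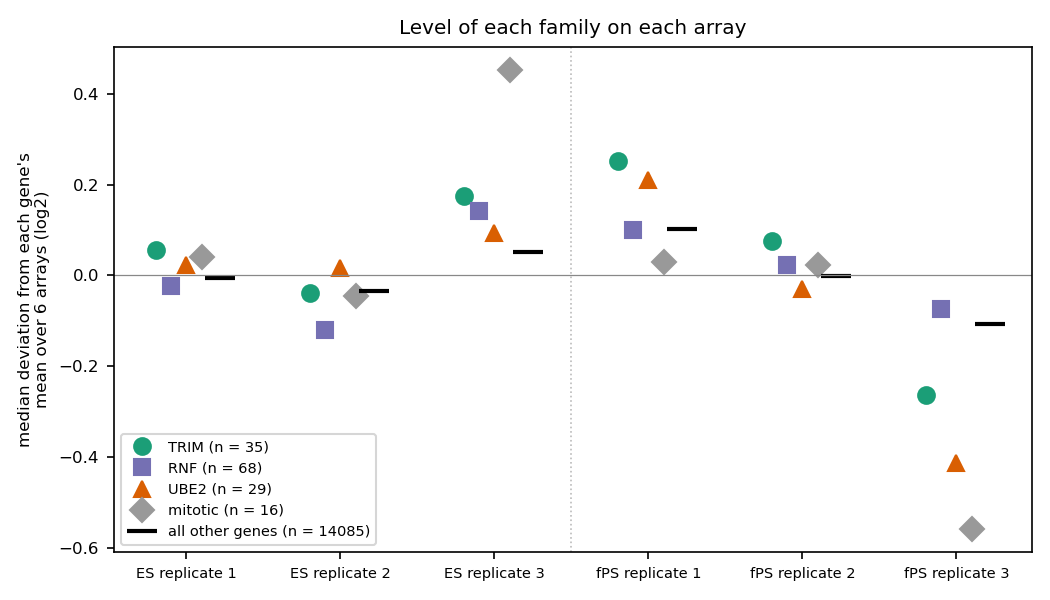
Median deviation (log2) of TRIM, RNF, UBE2, mitotic and all other genes from each gene's mean over the 6 arrays, on each ES and fPS array. On fPS replicate 3 the UBE2 genes (-0.41) and the mitotic genes (-0.56) lie lowest, while fPS replicates 1 and 2 lie within the range of the ES arrays or above it, except the UBE2 value of replicate 2 (-0.030).

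Ube2c and Ube2s work with the anaphase-promoting complex, Ube2c starting and Ube2s lengthening its ubiquitin chains. Ube2c had 2205, 1872 and 1683 in ES cells against 1513, 1531 and 1017 in fPS cells, without overlap, a log2 difference of -0.51 (SE 0.240, adjusted p = 0.354). Ube2s had 3829, 2818 and 2568 against 3869, 3301 and 1819, which overlapped, a change of -0.084 (95% interval -0.80 to 0.63). Of 16 mitotic genes 0 passed and 15 were negative (median -0.30), but the number that were positive reached 10 with ES replicate 3 and fPS replicate 3 left out. Of the 17 genes of the complex and its regulators, 0 passed and 13 were negative (median -0.21). This lean followed ES replicate 3 more than fPS replicate 3. The median was -0.048, with 10 negative, without ES replicate 3 and -0.17, with 11 negative, without fPS replicate 3. Without both it was 0.022, with 8 negative.

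Ube2n and Ube2v2 form the pair that makes chains through lysine 63. Ube2v2, the partner without a catalytic cysteine, had 1624, 1446 and 1804 in ES cells against 1420, 1096 and 831 in fPS cells, which is -0.56 in log2 (SE 0.247, adjusted p = 0.321) without overlap. Ube2n, the catalytic partner, had 1104, 1264 and 1140 against 1609, 1328 and 686, a change of -0.037 with overlap. This change was 0.32 without fPS replicate 3. The dimmer second probe set of Ube2n had -0.35 (SE 0.228), also with overlap.

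The E2 enzymes of the endoplasmic reticulum had opposite signs. Ube2j1, an E2 anchored in that membrane for the disposal of misfolded proteins, had 82.0, 121 and 137 in ES cells against 213, 275 and 188 in fPS cells. The groups did not overlap, and the log2 change of 0.91 (SE 0.250, adjusted p = 0.134) did not pass. Its relative Ube2j2 had 1670, 1301 and 1769 against 1397, 851 and 650, a change of -0.76 (SE 0.299, adjusted p = 0.270) with overlap. Ube2g2, which acts in the same pathway, had 234, 175 and 193 against 292, 235 and 275, a change of 0.39. Ube2m, the E2 that carries NEDD8 to cullins, had 916, 800 and 722 against 1045, 1139 and 1036, a change of 0.40 (SE 0.200, adjusted p = 0.394) without overlap.

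The E2 enzymes that work with many ligases, 5 measured of the Ube2d and Ube2e groups, all had a negative sign (median -0.51) and 0 passed. Ube2d1 had 1220, 967 and 585 in ES cells against 692, 389 and 349 in fPS cells, which is -0.93 in log2 (SE 0.344, adjusted p = 0.240). Its groups overlapped. Those of its dimmer probe set did not, at 476, 326 and 216 against 145, 117 and 97.4, a difference of -1.34 (SE 0.299, adjusted p = 0.0834). Ube2d2 and Ube2d3 encode near-identical proteins, and 3 further probe sets carried both of their symbols, with changes of -0.73, -0.62 and -0.42 that did not pass. Without both ES replicate 3 and fPS replicate 3 the list's median was -0.072.

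Probe sets of 1 gene did not always tell the same. Of 53 of the 132 genes with several probe sets, all signs were equal in 35 and differed in 18, and among the UBE2 genes they differed in 7 of 16. Ube2l3, the E2 of RBR and HECT ligases, had 3086, 3262 and 2714 against 3117, 3432 and 2563 in its brighter probe set, a log2 difference of 0.0016 (95% interval -0.48 to 0.48). Its second probe set had 799, 813 and 1142 against 560, 388 and 300, a change of -1.14 (SE 0.276, adjusted p = 0.0972) without overlap. Ube2k, an E2 that builds chains through lysine 48, had 2384, 2205 and 2118 against 2362, 1980 and 1356 in the brightest of 4 probe sets (change -0.27), and its other probe sets had -1.19, -0.74 and -0.91.

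**Figure D4:**
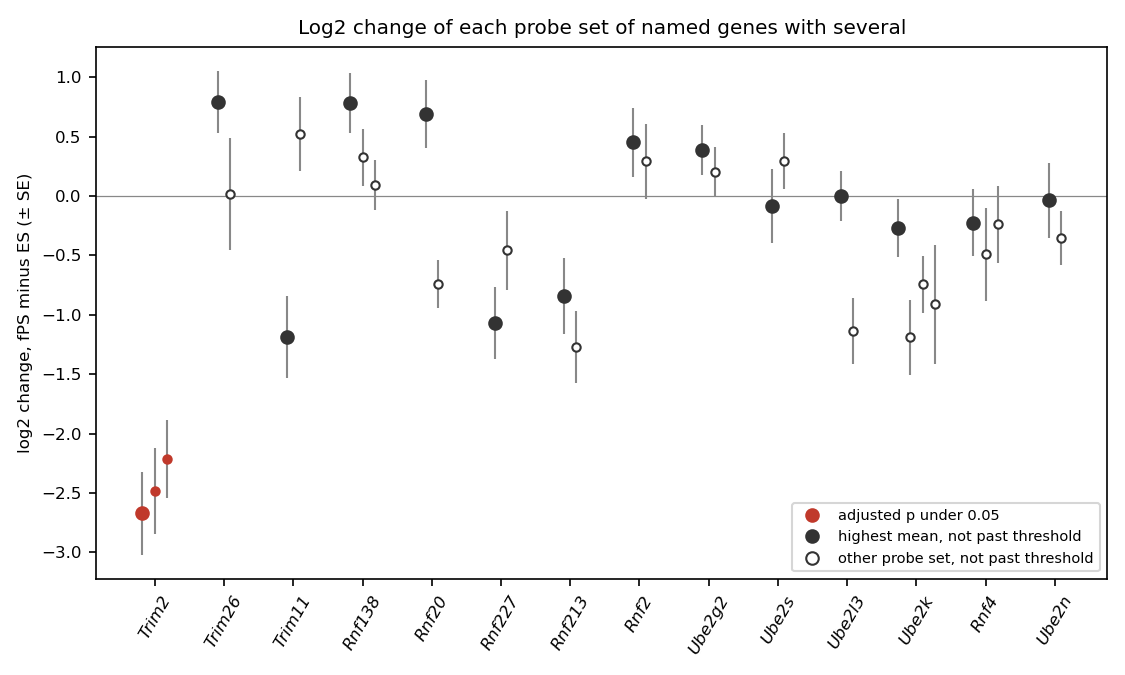
Log2 change (fPS minus ES, ± SE) of every probe set of the named genes that have several, the one with the highest mean drawn first and larger. The 3 probe sets of Trim2 lie together between -2.67 and -2.22, while those of Trim11, Rnf20 and Ube2s take both signs and those of Ube2l3 lie at 0.0016 and -1.14.

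The rest of the ubiquitin pathway was read from 6 lists with 153 measured genes, of which 1 rose, 0 fell and 152 did not pass. Beside this, 0.858% of all genes were called, 0.57% upward. The groups did not overlap in 36 of the 153 (23.5%, beside 22.6% of all genes), so these counts lay near the background. The gene that rose was Vhl, the substrate receptor of the cullin-2 ligase that degrades hypoxia-inducible factors. It had 569, 703 and 577 in ES cells against 1413, 2023 and 2012 in fPS cells, which is 1.52 in log2 (SE 0.228, limma adjusted p = 0.0367). This call was kept without fPS replicate 1 and lost when any of the other 5 arrays was left out (adjusted p from 0.0807 to 0.188). By list, the counts were 1 of 21 genes in the cullin-RING core, 0 of 21 HECT ligases, 0 of 17 genes of the anaphase-promoting complex, 0 of 39 other RING ligases, 0 of 43 deubiquitinases and 0 of 12 ubiquitin-like proteins and E1 enzymes, with medians of -0.028, -0.060, -0.21, -0.071, -0.14 and -0.31.

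The last of these lists leaned to 1 side in every alternative that was run. Of its 12 measured genes 11 had a negative sign, in 6 the groups did not overlap, and 0 passed. Beside these 6, the groups did not overlap in 22.6% of all genes, and in 28.2% of the other genes at a mean intensity of at least 100, where 11 of the 12 lie. Those other genes leaned the same way, with 4078 of 6781 negative and a median of -0.10. Uba1, the main E1 enzyme of ubiquitin, had 1398, 1347 and 1773 in ES cells against 1230, 1244 and 1113 in fPS cells, which is -0.32 in log2 (SE 0.207, adjusted p = 0.520). Uba6, the other E1 of ubiquitin, had 964, 1090 and 1472 against 921, 718 and 458, a change of -0.77 (SE 0.296, adjusted p = 0.258). Sumo3 had 2850, 2735 and 4009 against 2186, 1754 and 1843, a change of -0.71 (SE 0.230, adjusted p = 0.187). The number of positive genes was 1 or 2 in every setting, and the median ran from -0.44 to -0.15. Trend and robust eBayes and the replicate block could not change either of these. All 12 genes are read on the same 6 arrays.

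**Figure D5:**
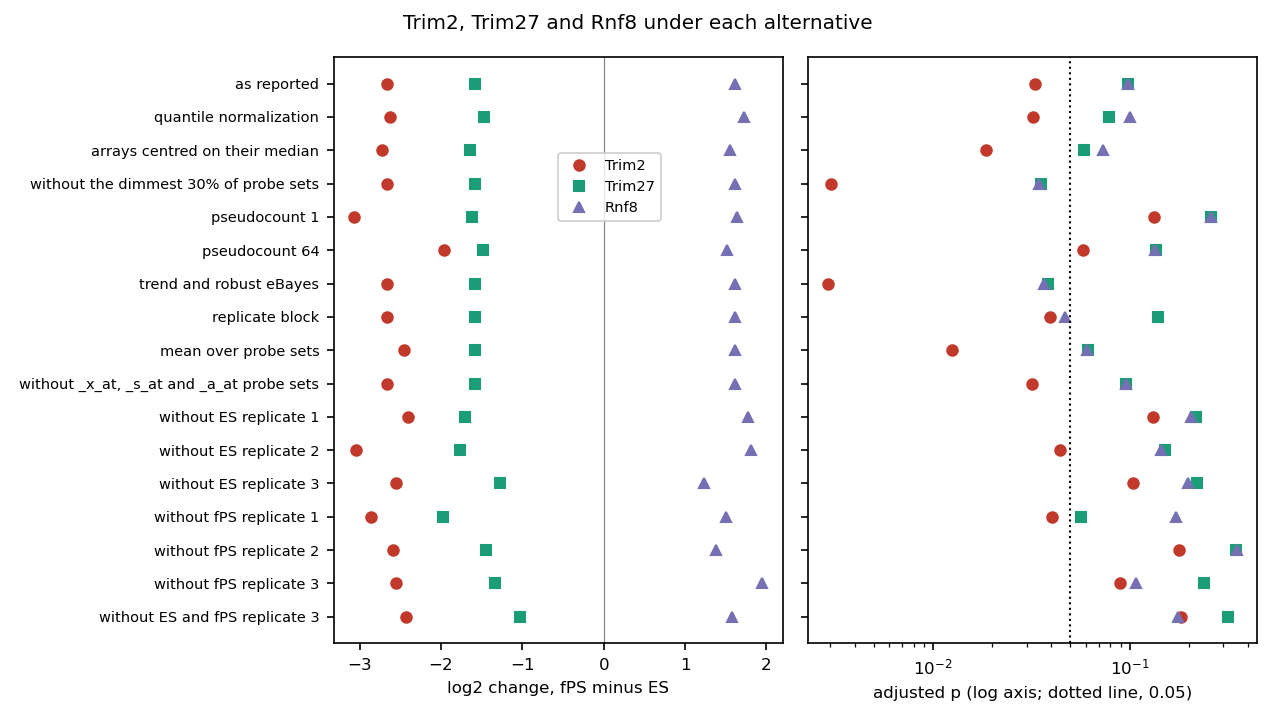
Log2 change (left) and limma adjusted p (right, log axis, dotted line at 0.05) of Trim2, Trim27 and Rnf8 as reported and under each of 16 alternatives. The signs do not change, though the dim filter, trend and robust eBayes and the replicate block cannot alter a log2 change. Trim2 lies right of the line in 7 alternatives, and Trim27 and Rnf8 lie left of it in 2 and 3.

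As to the arrays themselves, the median intensity ran from 37.6 to 38.7 on the ES arrays and from 36.2 to 45.3 on the fPS arrays, and the number of arrays limits the precision. Pearson's r of log2 values over all probe sets was 0.958 to 0.972 within ES cells, 0.956 to 0.970 within fPS cells and 0.932 to 0.961 between them. Of 16 pluripotency markers listed, 11 were measured, with 0 values at 0 and a summed intensity of 21675 to 28585 on the ES and 19764 to 24440 on the fPS arrays; Pou5f1 and Nanog were not analysed here. All 21 fibroblast markers, which stand for the feeder cell type, were measured, with 0 values at 0 and a summed intensity of 6739 to 9485 and 6722 to 7607. Of these, 0 passed, 15 had a positive sign and the median was 0.29. Values near the floor also lay above 0, so 0 values at 0 does not show detection. A mean intensity of at least 100 was reached by 10 of the 11 pluripotency and 9 of the 21 fibroblast markers. The fibroblast mean of log2(intensity + 16) ran from 5.75 to 7.09 on the ES and 6.40 to 7.11 on the fPS arrays, highest on replicate 3 of each. The summed intensity of 8 collagens was highest on ES replicate 3 (2535) and fPS replicate 3 (1731), beside 352 to 695 on the other arrays, and its part in the values above was not tested beyond leaving out both arrays.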

How the data were processed

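Values were the linear intensities that the authors deposited, 1 per probe set and array; how they summarised probes, corrected the background and scaled the arrays is not given in the sources used here. Of 31099 probe sets 57 controls were left out and 31042 were tested as log2(intensity + 16) with limma 3.58.1 in R 4.3.3 (lmFit, eBayes), with Benjamini-Hochberg adjustment over all of them. No filter and no further scaling were applied. Symbols came from the platform annotation: 20826 probe sets had 1 symbol, 436 several and 9780 none. All 132 genes were found in the RefSeq table of GRCr8, where 0 symbols differed; promoter sequences are RefSeq's, of that assembly. Figures used matplotlib 3.10.9 in Python 3.11.15. The fit was tested on simulated data in which 50 probe sets were changed at each size. At an adjusted p under 0.05 it recovered 4% of 2-fold changes, 78% of 4-fold changes and 100% of 8-fold changes. The simulated probe sets varied independently and few were changed, with no shift shared by the probe sets of an array. These data differ in that, so the percentages do not give the sensitivity reached here.

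The members and gene lists were chosen with earlier results of these data known. Named genes were those past the threshold, in each family the 3 largest rises and 3 largest falls without overlap at a mean intensity of at least 100, the 3 brightest, and Trim28, Trim24, Trim33, Rnf2, Rnf4, Ube2c, Ube2s and Ube2n by role. Other genes named were chosen after their values were seen.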

Additional observations from a re-analysis of the deposited data

How the results depend on the processing

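In 16 alternatives 0 to 3 of the TRIM, RNF and UBE2 genes passed, and those were Trim2, Trim27 or Rnf8. Beside the 1 TRIM gene that fell, 2 did so without the dimmest 30% of probe sets and with trend and robust settings, and 0 with a pseudocount of 1 or 64 or with ES replicate 3 and fPS replicate 3 left out together; the range without single arrays was 0 to 1. In place of 0 RNF genes, 1 rose without the dimmest 30%, with trend and robust settings and with the replicate block. Arrays of equal replicate number had correlations of deviations of 0.15, 0.020 and 0.075, and those of unequal number had -0.14 to 0.054. These values do not settle whether the numbers pair the arrays. The block gave 64 genes in all. Instead of 122 genes of the whole array, 203 passed with centred arrays, 416 without the dimmest 30%, 0 with a pseudocount of 1, 26 with 64, 358 with trend and robust settings, 300 with the mean over probe sets and 0 without both replicates 3, and 0 to 93 without single arrays. Where 0 genes passed, limma gave 1831 (pseudocount 1) and 2329 (without both replicates 3) at an unadjusted p under 0.05. The cause was not tested. Family medians moved by less than the spread between arrays in every alternative, an SD of 0.20 (TRIM), 0.11 (RNF) and 0.22 (UBE2). Each SD is larger than the family's own median in size, so a turn of sign can lie within it. That of UBE2 turned from -0.14 to 0.044 without both replicates 3. Without single arrays the medians ran from -0.14 to 0.13 (TRIM), 0.017 to 0.098 (RNF) and -0.28 to -0.0086 (UBE2). For all other genes they ran from -0.046 to 0.049.

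Signs near 0 turned for some genes that had not passed. With quantile normalization Trim6, Ube2s and Ube2n had 0.065, 0.089 and 0.087; with centred arrays Ube2l3 had -0.059; with the mean over probe sets Rnf20, Ube2s and Ube2l3 had -0.024, 0.11 and -0.57. Without both replicates 3, Trim28, Trim6, Trim35, Rnf7, Rnf115, Ube2s, Rnf4 and Ube2n had 0.19, 0.31, 0.038, -0.15, 0.14, 0.12, 0.18 and 0.30, and Trim2 had -2.44 (adjusted p = 0.182). Without single arrays the changes ran from -0.37 to 0.0047 for Trim28, -0.060 to 0.45 for Trim33, -0.22 to 0.16 for Trim6, -0.089 to 0.21 for Rnf7, -0.26 to 0.0097 for Rnf115, -0.091 to 0.12 for Ube2l3, -0.28 to 0.32 for Ube2n and -0.30 to 0.24 for Ube2s. The alternatives for Vhl were added after its value was seen; it was also lost with pseudocounts of 1 and 64, the replicate block and without both replicates 3 (adjusted p = 0.153, 0.0516, 0.0565 and 0.182).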

Other observations

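Usp46, a deubiquitinase, was the member of the other pathway lists with the largest decrease. It had 110, 114 and 122 in ES cells against 45.6, 33.1 and 11.5 in fPS cells. The groups lay far apart, and the log2 change of -1.59 (SE 0.300) missed the threshold (limma adjusted p = 0.0550). Tnfaip3, a deubiquitinase that restrains NF-κB signalling, had 30.9, 21.6 and 22.2 against 52.6, 56.2 and 90.8, a change of 0.99 (SE 0.241, adjusted p = 0.0977). Mdm2, the ligase of p53, had 683, 827 and 1019 against 1370, 1515 and 1874, a change of 0.91 (SE 0.234, adjusted p = 0.115). Isg15, a ubiquitin-like protein induced by interferon, had 1015, 233 and 322 against 203, 156 and 84.8, so its change of -1.50 (SE 0.513, adjusted p = 0.207) came with 1 ES array far above the others. These genes were named after their values were seen.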
